A study of Mus musculus with 2 samples.

Results

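The genes described here are 10 AP-1 and immediate early genes, taken by symbol from a table of 31053 mouse genes. They are Fos, Fosb, Jun, Junb, Jund, Egr1, Atf3, Ier2, Nr4a1 and Zfp36, and all 10 had counts in both libraries. Immediate early genes are transcribed soon after a stimulus such as a growth factor, a cytokine or tissue damage, without new protein synthesis. AP-1 is a dimer of basic leucine zipper proteins in which a Jun protein pairs with a Fos, an ATF or another Jun protein and binds DNA. These genes are known to respond to pancreatitis, and in many tissues also to the enzymes and warming used to dissociate cells.

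Both libraries were made from the pancreas after pancreatitis, in R26[CA]30EYFP mice with a C57Bl/6J background, and the treatment field of both reads "None". The mice carry a reporter for the fluorescent protein EYFP with a CA repeat of 30 units, so both sorted groups share the allele. Cells sorted as EYFP positive made 1 library and cells sorted as EYFP negative made the other, which leaves each group without a replicate and every difference between groups without a test. How many animals went into a library, how old they were and when after pancreatitis the cells were taken is not known here. Stromal, epithelial and lymphoid cells were compared within the EYFP positive library, which held most of the stromal and epithelial cells, and the sorted groups were compared class by class.

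Values are unique molecular identifiers (UMIs, 1 per captured transcript molecule) summed over the cells of a class and scaled to a common total of UMIs (CPM, the usual unit). The EYFP positive library kept 860 cells with 2745342 UMIs and a median of 1008 UMIs a cell. The EYFP negative library kept 553 cells with 4857210 UMIs and a median of 8020 UMIs a cell. Acinar secretory transcripts made up 4.37% of UMIs in the former and 0.106% in the latter, and Lars2 with Gm42418, both often high in libraries of damaged cells, 8.28% and 0.343%. Of the barcodes, 4 occurred in both libraries, 2 of them among kept cells. EYFP is not among the genes counted, which leaves the sort itself unchecked. Intervals in parentheses are exact 95% intervals and cover counting error only.

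Cell classes were named from marker genes and are called X-like, and the 10 genes took no part in the clustering. In the EYFP positive and EYFP negative libraries, in that order, there were 230 and 384 T-like, 112 and 107 B-like, and 33 and 25 NK-like cells, together called lymphoid. Fibroblast-like cells numbered 64 and 6 and endothelial-like cells 58 and 11, together called stromal. Epithelial cells were 224 ductal-like and 86 acinar-like cells in the EYFP positive library, against 2 and 1 in the EYFP negative library. Macrophage-like cells numbered 27 and 11, and 25 EYFP positive cells stayed unnamed. A further 1 EYFP positive and 6 EYFP negative cells were classed as erythroid from hemoglobin and other red cell genes. In the EYFP positive ductal-like class ductal markers stood at 29471 CPM (16 of 16 detected) and endocrine markers at 35207 CPM (9 of 9). Of those 29450 endocrine UMIs, 29411 lay in 1 cell of 53707 UMIs. Without it endocrine markers stood at 49.8 CPM, Jun at 1832 CPM in place of 1803 and the 10 genes at 4975 CPM in place of 4840.5, and the cell was kept in the values below.

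The 250 bases before the start that RefSeq gives were at hand for 8 of the 10 genes. They are printed for Fos, Fosb, Jun and Junb, the AP-1 partners whose levels are compared most, and for Nr4a1, which held the most matches. The windows run 5′ to 3′ on the gene's strand and come from RefSeq on GRCm38.p6, with motif matches in capitals. Motifs were searched on both strands: the core CRE site TGACG, bound by CREB and ATF proteins; the full CRE TGACGTCA, which contains it; the AP-1 site TGACTCA; the EGR site GCGGGGGCG; TATAAA; and the CArG box, bound by serum response factor.
Fos: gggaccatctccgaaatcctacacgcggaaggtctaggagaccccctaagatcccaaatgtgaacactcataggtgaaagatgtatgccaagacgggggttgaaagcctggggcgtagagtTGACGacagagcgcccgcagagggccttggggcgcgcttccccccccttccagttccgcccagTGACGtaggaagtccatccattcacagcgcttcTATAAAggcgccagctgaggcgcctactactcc
Fosb: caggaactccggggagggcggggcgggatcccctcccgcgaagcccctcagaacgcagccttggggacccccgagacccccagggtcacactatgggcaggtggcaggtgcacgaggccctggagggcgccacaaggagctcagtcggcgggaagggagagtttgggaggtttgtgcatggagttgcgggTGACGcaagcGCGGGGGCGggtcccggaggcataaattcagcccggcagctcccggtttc
Jun: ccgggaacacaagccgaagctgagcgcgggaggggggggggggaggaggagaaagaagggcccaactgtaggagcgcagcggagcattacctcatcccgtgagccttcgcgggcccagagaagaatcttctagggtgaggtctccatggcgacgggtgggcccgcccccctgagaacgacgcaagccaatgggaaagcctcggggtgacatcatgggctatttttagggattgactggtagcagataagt
Junb: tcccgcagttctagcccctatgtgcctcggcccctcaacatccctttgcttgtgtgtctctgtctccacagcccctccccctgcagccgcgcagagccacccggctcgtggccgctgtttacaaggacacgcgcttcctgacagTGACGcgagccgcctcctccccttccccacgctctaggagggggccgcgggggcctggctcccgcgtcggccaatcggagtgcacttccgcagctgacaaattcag
Nr4a1: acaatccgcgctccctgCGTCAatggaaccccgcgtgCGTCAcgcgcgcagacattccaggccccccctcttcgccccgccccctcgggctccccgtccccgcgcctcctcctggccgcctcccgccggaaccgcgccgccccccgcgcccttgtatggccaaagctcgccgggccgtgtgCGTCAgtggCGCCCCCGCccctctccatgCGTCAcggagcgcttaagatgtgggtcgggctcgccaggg
The Fos window is chr12:85473640-85473889 on the plus strand, and holds the core CRE site at -129 and -66 and TATAAA at -33 from the start. The Fosb window is chr7:19310046-19310295 on the minus strand, with a core CRE site at -60 and an EGR site at -50. The Jun window is chr4:95052223-95052472 on the minus strand and held none of these motifs as spelled. The Junb window is chr8:84978749-84978998 on the minus strand, with a core CRE site at -106. The Nr4a1 window is chr15:101266596-101266845 on the plus strand, with 4 core CRE sites and an EGR site at -60. The windows of Nr4a1, Atf3 and Zfp36 lie inside the GENCODE M21 gene model, which begins at a transcript start farther upstream. The Jund window, chr8:70697489-70697738 on the plus strand, ends well before the GENCODE M21 start of Jund at 70698949. It held none of these motifs and is counted among the 8. Atf3 had a core CRE site at -7, and Zfp36 an EGR site at -105 and a CArG box at -58. The core CRE site was in 5 of 8 windows, against 17.8% of 32841 promoters over the same length, and the EGR site in 3 of 8, against 2.57%. TATAAA was in 1 of 8 windows and in 12.4% of all promoters, and the CArG box in 1 of 8 and in 1.47%. The full CRE and the AP-1 site were in 0 of 8 windows, and in 1.55% and 4.46% of all promoters. A match is a run of letters and not a measured binding site.

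Egr1 separated the cell classes by a wide margin. It encodes a zinc finger factor that binds GC-rich sites. In the EYFP positive library it stood at 1151 CPM (994 to 1326) in fibroblast-like and at 1079.5 CPM (958 to 1212) in acinar-like cells. It was lower in macrophage-like cells at 582 CPM, and lower again in ductal-like cells at 355 CPM and endothelial-like cells at 348 CPM. T-like cells held 68.4 CPM (50.5 to 90.7), NK-like cells 20.1 CPM from 1 UMI, and B-like cells 15.5 CPM from 5 UMIs. Every stromal, epithelial and macrophage-like class had an interval above that of T-like cells, while fibroblast-like and acinar-like cells could not be ordered.

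Jun followed another order. It encodes c-Jun, a strongly activating AP-1 subunit. Its level was 2364 CPM (2182 to 2557) in acinar-like and 2320.4 CPM (2106 to 2551) in endothelial-like cells, 1803 CPM in ductal-like and 1609 CPM in fibroblast-like cells. Macrophage-like cells held 1096 CPM, NK-like cells 962 CPM, B-like cells 879 CPM and T-like cells 680.1 CPM (620.4 to 744). The stromal and epithelial classes were above the macrophage-like and lymphoid classes, and T-like cells were lowest.

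Junb, whose protein can oppose c-Jun, varied less between classes than Egr1 or Jun. Its highest level was 693 CPM (572 to 832) in fibroblast-like cells and its lowest 284 CPM (223 to 356) in acinar-like cells, the class with the most Jun. Between them lay NK-like cells at 682 CPM, T-like at 603 CPM, endothelial-like at 549 CPM, macrophage-like at 535 CPM, B-like at 484 CPM and ductal-like at 467 CPM, where the intervals of neighbours overlapped. Jund, the Jun gene that many cells express without stimulation, ran from 1162 CPM (1047 to 1285) in B-like cells down to 669 CPM (609.5 to 732) in T-like cells, and each pair of neighbours in its order overlapped. The low Junb level of acinar-like cells depends on the total it is scaled to. Scaled to UMIs other than acinar secretory, mitochondrial and ribosomal ones, Junb stood at 641 CPM in acinar-like and 631 CPM in ductal-like cells. It also differed within the class, at 503 CPM in a cluster led by Rbpjl and 40.04 CPM in one led by digestive enzyme transcripts.

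Fos encodes the c-Fos subunit, which needs a Jun partner to bind DNA. It was highest in fibroblast-like cells at 1055 CPM (904 to 1223), followed by macrophage-like cells at 975 CPM and NK-like cells at 742 CPM. Acinar-like cells held 693 CPM, endothelial-like cells 565 CPM and ductal-like cells 555 CPM. T-like cells at 391 CPM and B-like cells at 319.9 CPM lay below these 3 without overlap. Fosb, a close relative of c-Fos, ranged from 362 CPM (281 to 458) in macrophage-like to 114 CPM (70.6 to 174) in endothelial-like cells. Of the summed Fos and Fosb UMIs, Fosb made up 40.5% (33.1 to 48.2) in B-like cells, 26.7% (22.3 to 31.5) in T-like cells and 18.2% (13.3 to 24.1) in fibroblast-like cells. B-like cells thus had the larger Fosb portion of the 3, and the EYFP negative library kept that order at 45.3%, 31.4% and 18.9%.

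Atf3, a stress-induced factor that often represses, was highest in macrophage-like cells among the named classes of the EYFP positive library. It had 40 UMIs and 209.7 CPM (149.8 to 286) in 27 EYFP positive macrophage-like cells and 18 UMIs and 68.2 CPM in acinar-like cells. The 40 UMIs came from 6 cells, with 17 in 1 cell. All 18 acinar-like UMIs lay in the cluster led by Rbpjl, so the class level understates that cluster. No other named class of that library held more than 5 Atf3 UMIs, and T-like and B-like cells were at 0, which allows up to 5.26 and 11.5 CPM. In the EYFP negative library macrophage-like cells held 24 Atf3 UMIs, 13 of them in 1 cell, and 181 CPM (116 to 269), close to the EYFP positive level.

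The 3 remaining genes each had their own order in the EYFP positive library. Ier2, a nuclear protein gene of the early response, was highest in acinar-like cells at 499.99 CPM (418 to 593) and lay between 140.4 and 309.7 CPM in the other named classes. Zfp36 encodes tristetraprolin, which speeds the decay of cytokine mRNAs. It reached 283 CPM (213 to 369) in macrophage-like and 267 CPM (214 to 329.9) in B-like cells, 196 CPM in endothelial-like and 115 CPM in fibroblast-like cells, and at most 94.1 CPM in T-like, ductal-like, acinar-like and NK-like cells. Nr4a1, an orphan nuclear receptor known to follow antigen receptor signals in lymphocytes, was low in all classes of that library. It stood at 73.4 CPM in macrophage-like, 65.2 CPM in endothelial-like, 25.7 CPM in T-like and 24.8 CPM in B-like cells. In ductal-like cells it stood at 4.78 CPM from 4 UMIs. EYFP negative endothelial-like cells held more, at 359 CPM (205 to 583) from 16 UMIs.

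**Figure D1:**
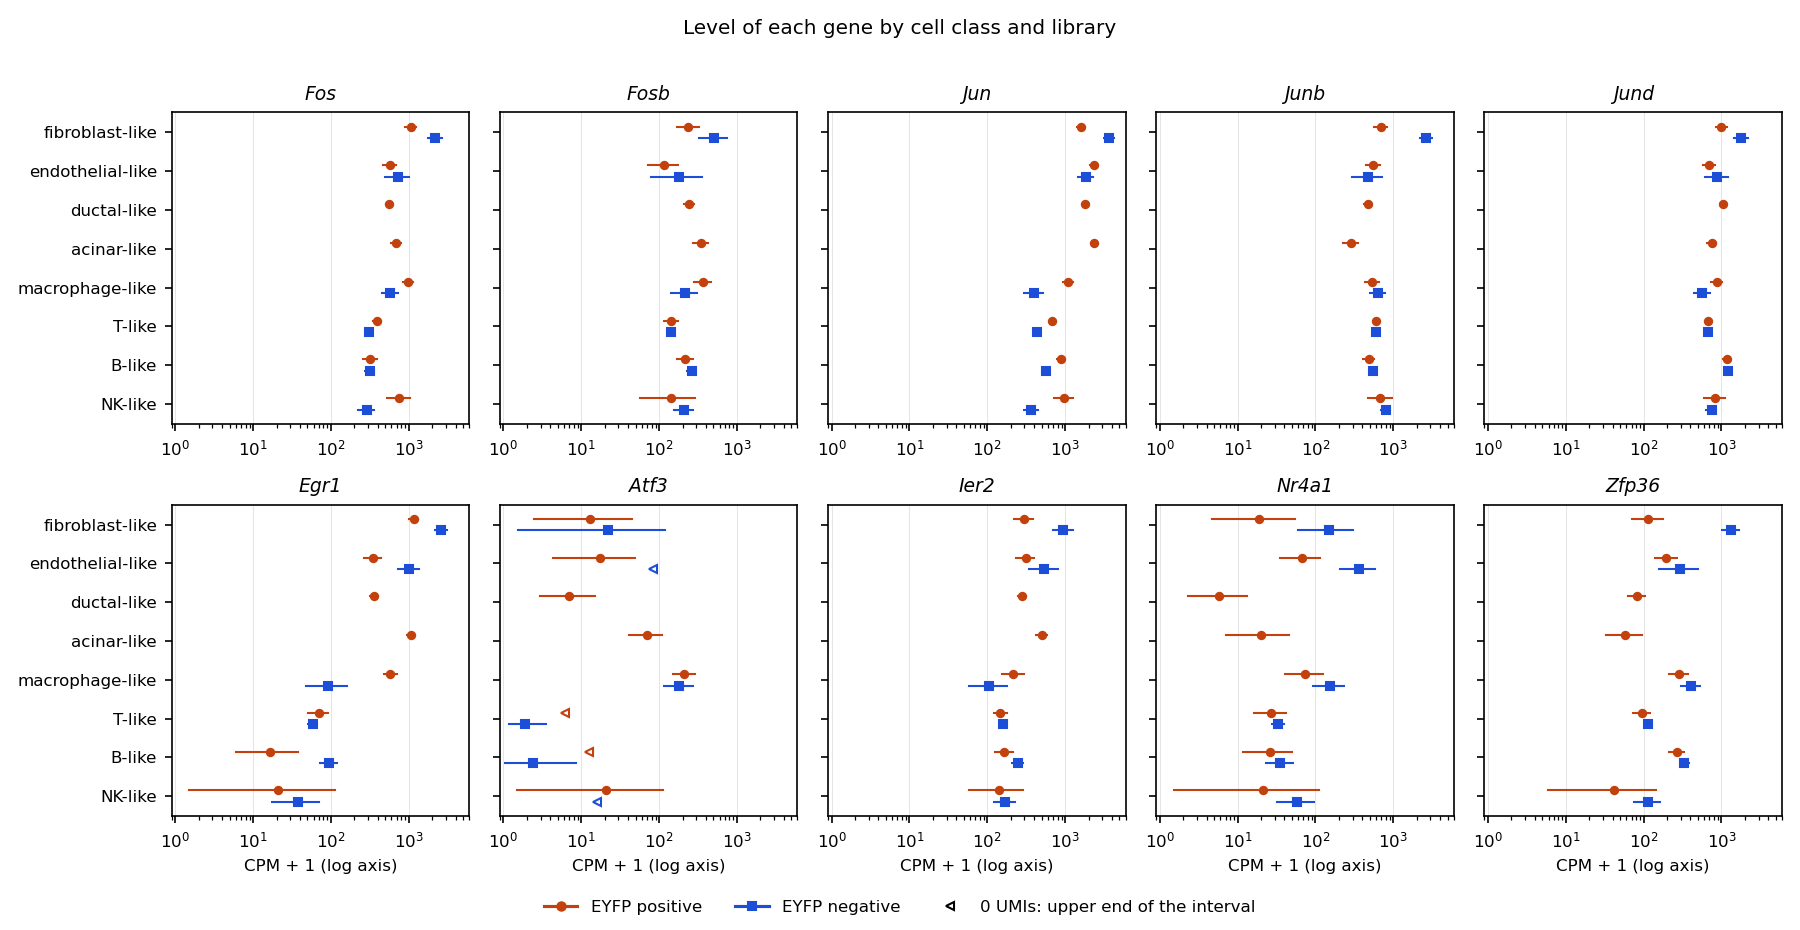
Each panel is 1 gene, with CPM plus 1 on a log axis against cell class; circles are the EYFP positive and squares the EYFP negative library, bars are exact 95% intervals, and open triangles mark the upper end of the interval where no UMI was found. Egr1 separates fibroblast-like and acinar-like cells (1151 and 1079.5 CPM) from B-like cells (15.5 CPM), while Junb (284 to 693 CPM) and Jund (669 to 1162 CPM) span less in the EYFP positive library.

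Stromal cells held more Egr1, Jun and Fos than lymphoid cells of the same library. Egr1 stood at 729 CPM in 122 stromal and at 50.3 CPM in 375 lymphoid cells, which is 14.5-fold (10.8 to 19.8). Jun stood at 1983 and 753 CPM, 2.63-fold (2.38 to 2.92). Fos stood at 797 and 386 CPM, 2.07-fold (1.77 to 2.41). These 3 of the 9 members with at least 10 UMIs were at least 2-fold higher in stromal cells, against 31% of all 9423 genes with as many, and 0 were 2-fold lower, against 17.3%. The share of members that were higher is thus near the background. Their median log2 fold was 0.79, and that of all genes 0.28. Ier2 stood just under the 2-fold line at 1.99-fold (1.55 to 2.56). Junb at 1.08, Jund at 1.02, Fosb at 1.04 and Zfp36 at 1.095 were near equality. Nr4a1 was at 1.704 (0.842 to 3.32), and Atf3 had too few UMIs to enter, 5 against 1.

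Epithelial cells were set against the same lymphoid cells, so this comparison shares them with the previous one. Egr1 stood at 529 CPM in 310 epithelial cells, 10.5-fold (7.94 to 14.2) above lymphoid cells. Jun at 1937 CPM was 2.57-fold (2.37 to 2.79) and Ier2 at 332 CPM 2.18-fold (1.81 to 2.64) higher. Atf3 had 23 UMIs in epithelial and 1 in lymphoid cells, a ratio of 22.4 (3.64 to 924). In the other direction, Nr4a1 had 9 UMIs in epithelial and 27 in lymphoid cells, a ratio of 0.325 (0.135 to 0.712). Zfp36 at 0.519 (0.392 to 0.683) and Junb at 0.741 (0.656 to 0.838) were also lower in epithelial cells, by less than 2-fold. In all, 4 of 10 members were 2-fold higher, against 34.8% of all genes, and 1 was 2-fold lower, against 13.8%. The median log2 fold was 0.65 over members and 0.42 over all genes.

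Between stromal and epithelial cells Jun stood at 1983 and 1937 CPM, a ratio of 1.02 (0.938 to 1.12) over all kept cells. The ratio was 0.465 (0.283 to 0.732) in cells under 1000 UMIs and 1.09 (0.996 to 1.19) in deeper cells, and the log2 fold was -0.59 with cells thinned to 500 UMIs. Nr4a1 was 5.24-fold (2.15 to 13.6) and Zfp36 2.11-fold (1.47 to 3.004) higher in stromal cells. These 2 of 10 were the members past 2-fold, against 19.2% of all genes higher, and 0 were lower, against 21.7%. Nr4a1 had 12 of its stromal UMIs in endothelial-like and 3 in fibroblast-like cells, and Zfp36 36 and 19. Fosb was lower in stromal cells at 0.644 (0.479 to 0.853), and Junb at 1.46 (1.23 to 1.72), Egr1 at 1.38 (1.18 to 1.599) and Fos at 1.36 (1.17 to 1.56) were higher, each by less than 2-fold.

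Cell depth divided these results. Of the EYFP positive cells, 68 of 122 stromal, 156 of 310 epithelial and 176 of 375 lymphoid cells had under 1000 UMIs. Lars2 with Gm42418 made up 34.7%, 28.4% and 32.6% of the UMIs of those cells, against 5.65%, 5.22% and 6.17% in deeper cells. Jun in stromal cells stood at 495 CPM (314 to 742) below 1000 UMIs and at 2211 CPM (2047 to 2385) above, while in lymphoid cells it stood at 606 and 772 CPM. The stromal over lymphoid ratio of Jun was 0.816 (0.488 to 1.32) in the shallow and 2.87 (2.58 to 3.19) in the deep cells, so its stromal excess was not seen in shallow cells. Jund, near equality over all cells, stood at 0.362 (0.1802 to 0.665) in the shallow and 1.11 (0.961 to 1.27) in the deep cells.

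Egr1 differed from lymphoid cells at both depths. In shallow stromal and lymphoid cells it stood at 323 and 24.6 CPM, a ratio of 13.1 (3.71 to 70.8) from 15 and 3 UMIs. In deep cells it stood at 791 and 53.6 CPM, a ratio of 14.8 (10.9 to 20.4). Epithelial over lymphoid ratios of Egr1 were 8.29 (2.49 to 43.3) in shallow and 10.5 (7.89 to 14.3) in deep cells, and those of Jun 1.76 (1.3 to 2.39) and 2.63 (2.42 to 2.87). The 10 genes summed to 2517, 2907 and 2654 CPM in shallow stromal, epithelial and lymphoid cells and to 6133, 5401 and 3124 CPM in deep cells. The part of RNA quality in the lower Jun level of shallow stromal cells was not tested. With each cell's CPM given equal weight, Egr1 was the 1 member still 2-fold higher in stromal than lymphoid cells, at a log2 fold of 3.496, and Jun stood at 0.86.

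**Figure D2:**
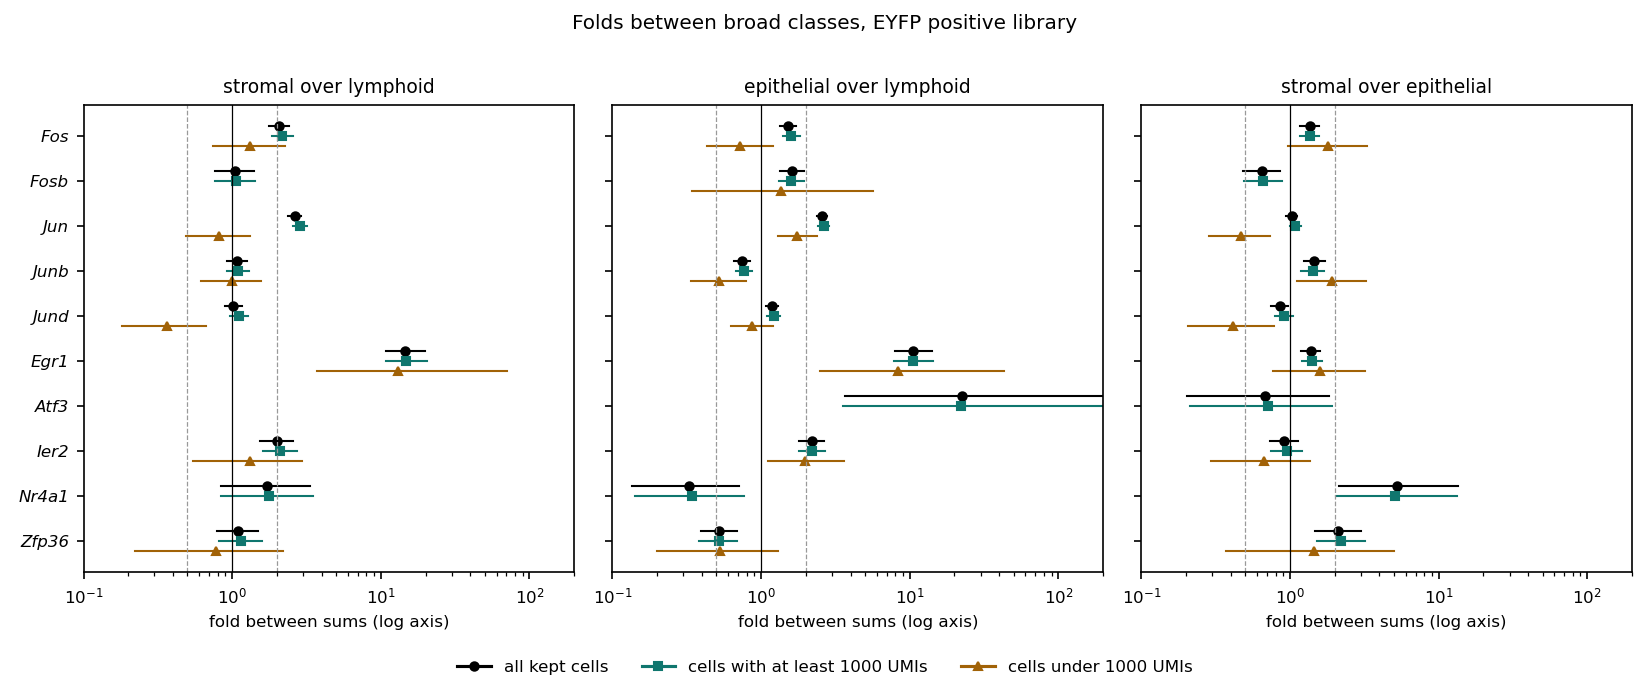
Each panel gives the fold between 2 broad classes of the EYFP positive library on a log axis for each gene, with exact 95% intervals, for all kept cells (black), cells with at least 1000 UMIs (green) and cells under 1000 UMIs (brown); dashed lines mark 2-fold either way, and long Atf3 intervals end at the axis. For stromal over lymphoid cells, Egr1 lies at 14.8 in deep and 13.1 in shallow cells, and Jun moves from 2.87 to 0.816.

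The balance of Jun and Junb, which needs no CPM total, also differed between classes. Jun made up 89.3% (86.7 to 91.5) of the Jun and Junb UMIs in acinar-like, 80.9% (77.3 to 84.1) in endothelial-like and 79.4% (77.5 to 81.2) in ductal-like cells of the EYFP positive library. It made up 69.9% in fibroblast-like, 67.2% in macrophage-like, 64.5% in B-like and 58.5% in NK-like cells, and 53% (49.7 to 56.3) in T-like cells. Acinar-like cells, as named by cluster, were thus alone at the top, and T-like cells lowest, with NK-like cells within counting error of them. In the EYFP negative library the share was 79.8% in endothelial-like, 58.2% in fibroblast-like, 50.3% in B-like, 42.5% in T-like, 38.7% in macrophage-like and 31.3% (25.9 to 36.95) in NK-like cells.

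In each of the 6 classes with at least 6 cells in both libraries the Jun share was higher in the EYFP positive library, and in 5 of them the intervals did not overlap. Endothelial-like cells were the exception. In T-like cells the libraries filled different clusters, since 147 of the 230 EYFP positive cells lay in a shallow cluster that held no EYFP negative cell. In the cluster with most EYFP negative T-like cells the share was 54.3% (50.001 to 58.5) in 71 EYFP positive cells and 44.7% (42.8 to 46.6) in 311 EYFP negative cells. In the B-like cluster found in both libraries it was 67.2% (61.9 to 72.1) and 50.3% (46.8 to 53.8). With every cell thinned to 500 UMIs, T-like cells stood at 46.9% (38.1 to 55.9) and 45.5% (38.9 to 52.3), which overlap, and B-like cells at 60.3% (48.5 to 71.2) and 34.4% (22.9 to 47.3), which do not. Fibroblast-like cells then stood at 69.6% (54.2 to 82.3) and 57.1% (34.02 to 78.2) and NK-like cells at 43.2% (27.1 to 60.5) and 16.7% (3.58 to 41.4), which overlap. Endothelial-like cells turned the other way, at 75.6% (60.5 to 87.1) and 85.7% (57.2 to 98.2), within counting error. EYFP negative macrophage-like cells had too few thinned UMIs for a share, so of the 5 classes with a thinned share in both libraries B-like cells alone stayed apart. Shallow EYFP positive cells had the lower Jun share in fibroblast-like cells, 45.2% below and 72.1% above 1000 UMIs, and in endothelial-like cells, 45% and 82.3%, while ductal-like cells had 77.8% and 79.5%.

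**Figure D3:**
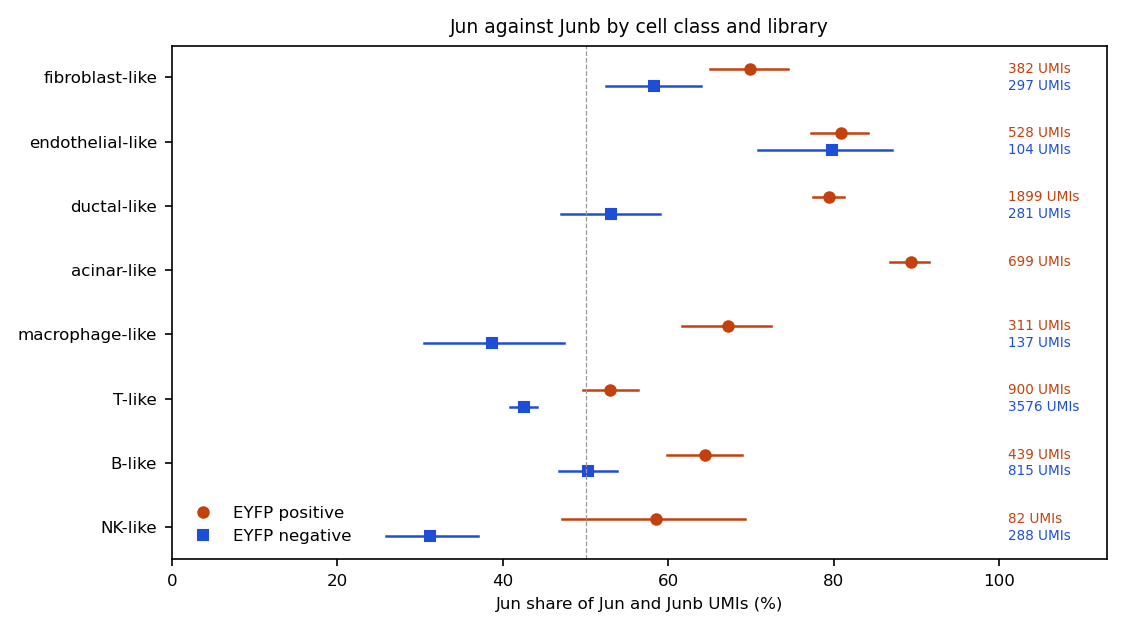
The share of Jun among summed Jun and Junb UMIs is plotted in percent for each cell class, with circles for the EYFP positive and squares for the EYFP negative library, exact 95% intervals and the UMI sum at the right; the dashed line marks equal counts. Acinar-like cells lie highest at 89.3%, and the EYFP negative ductal-like value rests on 2 cells.

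The acinar-like class was made of 2 clusters with very different levels. In 55 cells led by Rbpjl, which encodes a transcription factor subunit of the acinar program, the 10 genes summed to 11113 CPM (10566 to 11681). In 31 cells led by digestive enzyme transcripts they summed to 633 CPM (501 to 788). Jun stood at 4306 and 200.2 CPM, Egr1 at 1969.6 and 88.1 CPM, and Fos at 1265 and 56.1 CPM. Acinar secretory transcripts took 5.64% of the UMIs of the Rbpjl-led and 67.9% of those of the enzyme-led cluster. Of all 2402 genes tested, 76.5% were 2-fold higher in the Rbpjl-led cluster and 9.28% lower, so nothing is read from 9 of 9 members being higher. Atf3 had 18 UMIs against 0. This contrast was chosen after its values were seen. Thinned to 500 UMIs a cell, Rbpjl-led cells held a median of 4 member UMIs (range 0 to 16) and enzyme-led cells a median of 0 (0 to 3, 23 of 31 at 0).

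Rbpjl-led acinar-like cells also stood above the 224 ductal-like cells. This contrast was not among those planned either, and it shares the Rbpjl-led cells with the previous one. Egr1 was 5.55-fold (4.69 to 6.56), Ier2 3.07-fold (2.44 to 3.85), Fosb 2.58-fold (1.98 to 3.33), Jun 2.39-fold (2.17 to 2.63) and Fos 2.28-fold (1.91 to 2.72) higher. Atf3 had 18 UMIs against 5, a ratio of 21.6 (7.75 to 74.6). Junb at 1.08 (0.822 to 1.39), Zfp36 at 1.26 (0.652 to 2.26) and Jund at 1.27 (1.08 to 1.49) stayed within 2-fold. Past 2-fold higher were 6 of 9 members, against 19.7% of all genes, and 0 were lower, against 40.6%. Of heat shock genes, 6 of 13 were 2-fold higher and 2 lower in the same comparison, and their part was not tested. The share of Lars2 with Gm42418 was 13.3% in the Rbpjl-led cluster, 18.6% in the shallow ductal-like cluster of 196 cells and 2.01% in the deep one of 28 cells. The 10 genes summed to 3631 CPM in that shallow and 5304 CPM in that deep ductal-like cluster, both under the Rbpjl-led level.

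**Figure D4:**
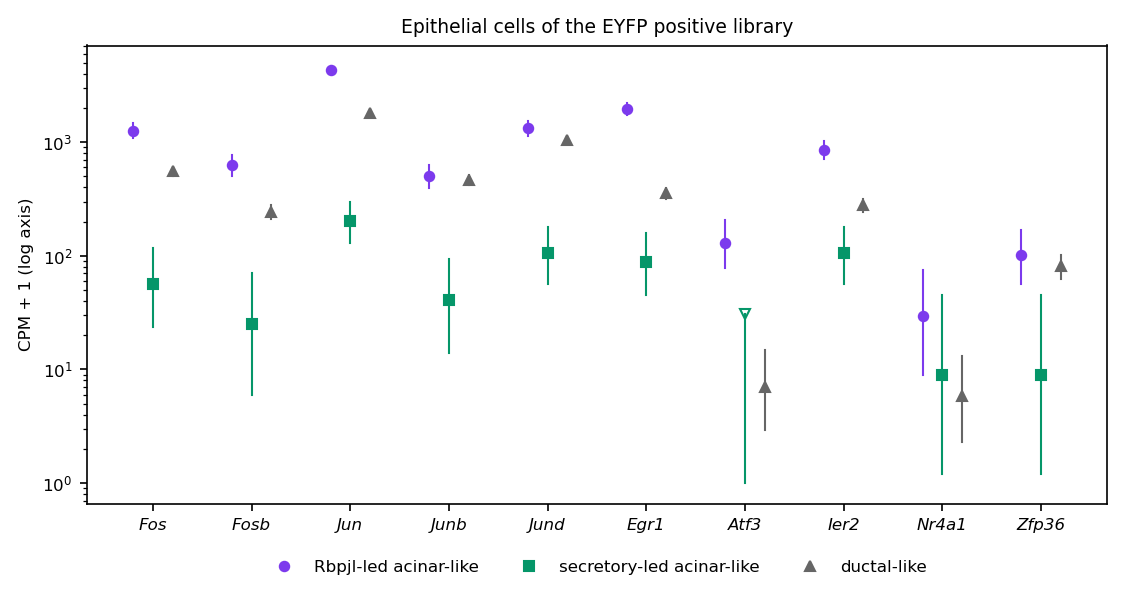
CPM plus 1 of each gene is plotted on a log axis for the Rbpjl-led acinar-like cluster (55 cells), the enzyme-led acinar-like cluster (31 cells) and ductal-like cells (224 cells) of the EYFP positive library, with exact 95% intervals. Jun stands at 4306, 200.2 and 1803 CPM in the 3 groups, and Junb differs little between the Rbpjl-led and ductal-like cells.

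T-like cells of the 2 libraries carried similar levels of most members. Junb stood at 603 CPM in EYFP positive and 594 CPM in EYFP negative T-like cells, a ratio of 1.01 (0.912 to 1.13). Jund stood at 669 and 663 CPM, and Fosb at 143 and 142 CPM. Of 9 members, 0 were past 2-fold in either direction, where 3.61% of all genes were higher and 8.88% lower in the EYFP positive library. Among all UMIs Jun differed most, at 680.1 and 439.96 CPM, 1.55-fold (1.39 to 1.71), followed by Fos at 391 and 312 CPM, 1.25-fold (1.09 to 1.43). With each cell thinned to 500 UMIs the log2 fold of Jun was 0.0025, and that of Zfp36, which has few UMIs at that depth, went from -0.26 to 0.98. In the shallow EYFP positive T-like cluster Jun stood at 499 CPM, and in the main shared cluster at 609.7 CPM against 434 CPM. In the smaller shared cluster of 12 and 79 cells it stood at 1499 and 413 CPM, where 58 of the 109 EYFP positive UMIs lay in 1 cell. The 79 include cells classed as erythroid, so 413 CPM is not a level of T-like cells alone. The 6 EYFP negative erythroid cells held 6 Jun UMIs among 106507 UMIs.

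B-like cells differed between libraries mainly in Egr1. It had 5 UMIs and 15.5 CPM (5.04 to 36.2) in the EYFP positive and 68 UMIs and 92.9 CPM (72.1 to 118) in the EYFP negative library, a ratio of 0.167 (0.0526 to 0.4096). The EYFP positive level lay within counting error of Egr1 in that library's barcodes with under 200 genes, at 20.03 CPM (9.605 to 36.8). Whether it is background or low expression was not tested. Of 9 members, 1 was 2-fold lower, against 7.4% of all genes, and 0 were higher, against 5.64%. Jun went the other way, at 879 and 559.97 CPM, 1.57-fold (1.34 to 1.83). The EYFP positive B-like cells lay in a shallow cluster of 63 cells with no EYFP negative cell and in the shared cluster of 49 and 107 cells. Within the shared cluster Egr1 stood at 7.61 CPM from 2 UMIs and at 92.9 CPM, and Jun at 872 and 559.97 CPM, so both directions were also seen there.

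In macrophage-like cells Egr1 and Jun were higher in the EYFP positive library. Egr1 had 111 UMIs and 582 CPM against 12 UMIs and 90.5 CPM, 6.43-fold (3.54 to 12.8). Jun stood at 1096 and 399.8 CPM, 2.74-fold (2.02 to 3.78), while Junb stood at 535 and 634 CPM, a ratio of 0.844 (0.626 to 1.14). Nr4a1 had 14 and 20 UMIs, a ratio of 0.487 (0.227 to 1.01), and Atf3 stood at 1.16-fold (0.681 to 2.01). In total 2 of 10 members were 2-fold higher, against 14.7% of all genes, and 1 lower, against 11.5%. These values rest on 27 and 11 cells, and with each cell thinned to 500 UMIs the log2 folds of Jun and Egr1 were -0.22 and 0.29. Acinar markers stood at 3344 CPM (14 of 17 detected) in EYFP positive and 302 CPM (10 of 17) in EYFP negative macrophage-like cells, and their part was not tested. Dendritic markers stood at 613 CPM (8 of 8) and 1659 CPM (7 of 8). Named from each cell's own markers, 32 EYFP positive and 6 EYFP negative cells were macrophage-like and 3 and 4 dendritic, and the macrophage-like log2 folds of Jun and Egr1 were 1.301 and 1.901.

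Fibroblast-like cells had lower levels in the EYFP positive library, set against few EYFP negative cells. The 10 genes summed to 6183 CPM in 64 EYFP positive and 15793 CPM in 6 EYFP negative cells. Zfp36 stood at 115 and 1330.2 CPM, a ratio of 0.0861 (0.0487 to 0.146). Junb stood at 693 and 2618 CPM, a ratio of 0.265 (0.204 to 0.344). Most members followed: 8 of 9 were 2-fold lower, against 19.1% of all genes, and 0 were higher, against 14%. Of the 6 EYFP negative cells, 1 with 857 UMIs held no member UMI, and the other 5, with 7734 to 10974 UMIs, lay between 9386 and 20817 CPM. At clustering resolution 2.0, 1 EYFP negative cell was left in the class and the members' median log2 fold went from -1.18 to 0.088. The EYFP positive cells were shallower, with a median of 707 UMIs a cell against 8838, and acinar markers stood at 7955 CPM (15 of 17 detected) against 21.1 CPM (1 of 17). Their part was not tested.

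Endothelial-like cells, 58 against 11, differed in Egr1 and Nr4a1. Egr1 stood at 348 CPM in the EYFP positive and 1010.2 CPM in the EYFP negative library, a ratio of 0.344 (0.232 to 0.516). Nr4a1 had 12 and 16 UMIs, a ratio of 0.182 (0.0784 to 0.409). These 2 of 9 members were 2-fold lower, against 14.5% of all genes, and 0 were higher, against 11.4%. Jun stood at 2320.4 and 1863 CPM, 1.25-fold (0.982 to 1.595), and its log2 fold was -0.93 with cells thinned to 500 UMIs. Mural markers were detected as 8 of 8 at 2179 CPM in the EYFP positive and 1 of 8 at 112 CPM in the EYFP negative class. Macrophage markers were detected as 10 of 12 at 581 CPM and 1 of 12 at 67.3 CPM, and the part of either list was not tested. Most EYFP positive cells lay in a shallow cluster of 35 and 2 cells. In the deep cluster of 23 and 9 cells Egr1 stood at 381 CPM (287 to 498) and 1057 CPM (771 to 1414), apart in the same direction.

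**Figure D5:**
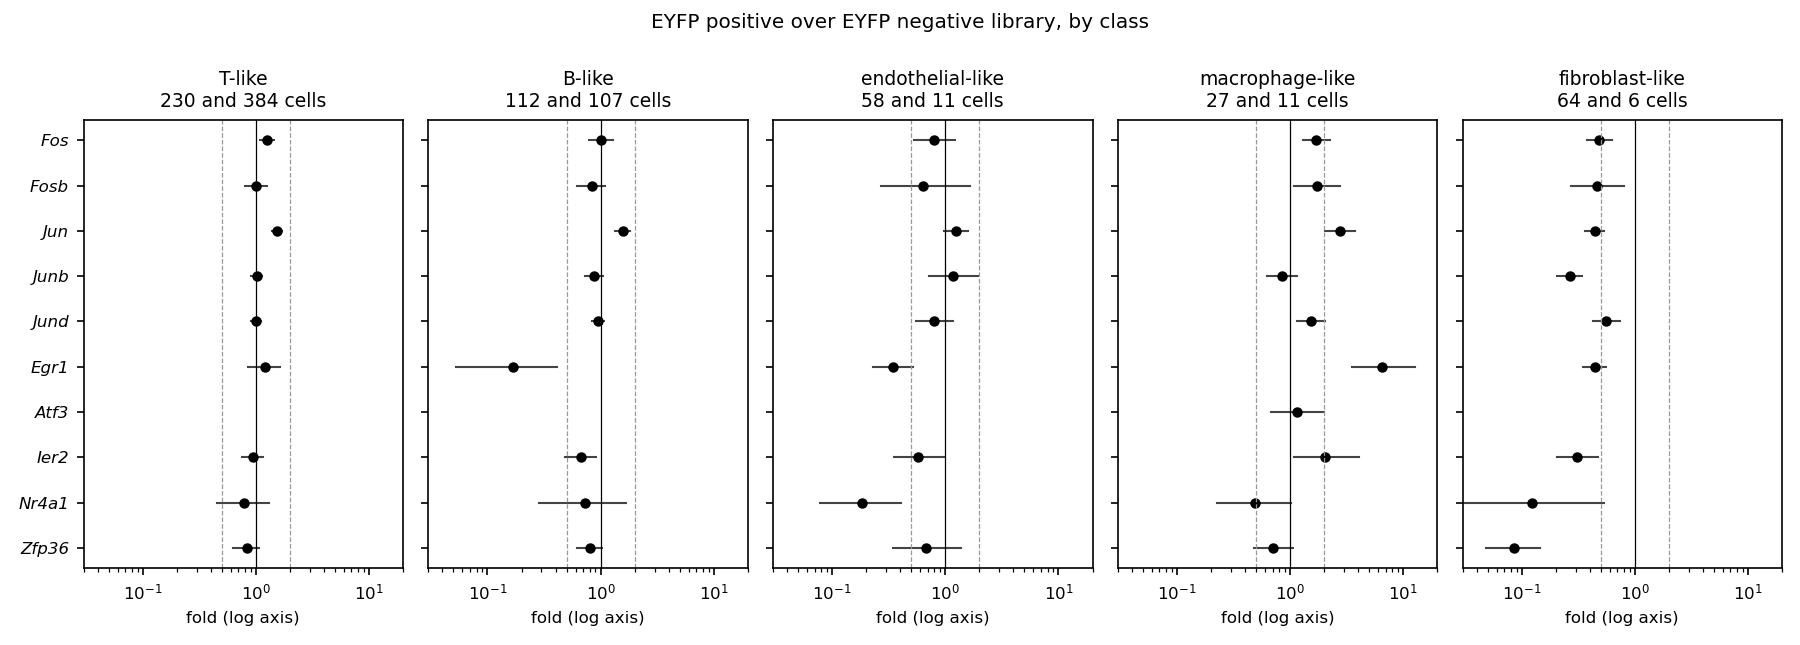
Each panel is a cell class and gives the fold of the EYFP positive over the EYFP negative library for each gene on a log axis, with exact 95% intervals; dashed lines mark 2-fold either way, and the Nr4a1 interval of fibroblast-like cells runs past the axis. T-like cells lie near 1 with Jun at 1.55, and Egr1 lies at 0.167 in B-like, 0.443 in fibroblast-like and 6.43 in macrophage-like cells.

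Across all kept cells, which mixes the different class contents of the libraries, the 10 genes stood at 4368 CPM in the EYFP positive and 2923 CPM in the EYFP negative library. Egr1 at 3.097-fold, Atf3 at 3.31-fold and Jun at 2.74-fold were past 2-fold, 3 of 10 members against 26.8% of all genes, and 0 were lower, against 7.63%. Nr4a1 at 0.575, Zfp36 at 0.755 and Junb at 0.825 were on the low side.

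Among lymphoid cells of the deeper EYFP negative library, B-like cells held more Zfp36 and Jund than T-like cells. Zfp36 stood at 114 CPM in T-like and 332 CPM in B-like cells, a ratio of 0.343 (0.291 to 0.404), and Jund at 663 and 1229 CPM, 0.539 (0.499 to 0.583). Fosb stood at 0.546 (0.461 to 0.648) and Jun at 0.786 (0.704 to 0.878), while Junb at 1.07 (0.966 to 1.198) and Fos at 0.987 (0.856 to 1.14) were level. Past 2-fold were 0 members higher in T-like cells, against 15.9% of all genes, and 1 of 9 lower, against 10.1%.

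The EYFP negative T-like cells also show how the genes vary from cell to cell. After 378 of 384 cells were thinned to 2000 UMIs, the 10 genes summed to a median of 5 UMIs a cell, with quartiles of 2 and 7 and a range of 0 to 28. The variance was 3.45 times the mean, where random counting alone gives a variance equal to the mean. At 0 were 30 cells, 12 held 15 UMIs or more, and the top 38 cells held 28.02% of the member UMIs. Those 38 of 378 cells thus carried more than an equal portion, while most member UMIs lay in the other cells. For single genes the variance was 2.78 times the mean for Fosb and 2.58 times for Egr1. Nr4a1, found in 18 cells with at most 2 UMIs in a cell, had a ratio of 1.23. Egr1 was found in 21 cells with up to 6 UMIs, so both ratios rest on few UMIs. The mean sum was 7.42 in a cluster of 71 thinned cells whose leading genes include Ikzf2 and Cd4, and 4.65 in the other 307 cells. Over all 79 EYFP negative cells of the former cluster hemoglobin made up 8.85% of UMIs, against 0.0158% in the other. Those 79 include cells classed as erythroid, which are not among the T-like cells described here. Erythroid markers stood at 164 CPM in the 384 T-like cells and at 718817 CPM in the 6 erythroid cells. A part of hemoglobin in the sums was not tested.

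The genes whose UMIs per cell followed the member sum most closely in these cells were Btg2, an antiproliferative early response gene (r = 0.4031), Dusp1, a phosphatase that switches off MAP kinases (0.31), Lmo4 (0.31), Fbxo28 (0.28) and Id2 (0.28), of 4199 genes ranked over 378 cells of 1 library. Each member against the sum of the other 9 gave 0.37 for Fos, 0.34 for Fosb and 0.32 for Jun, and 0.036 for Egr1 and -0.02 for Zfp36. Across 14 sums of a class in a library, the genes most like the members' mean level were Spop (r = 0.89), Cbfa2t3 (0.86), Tmed3 (0.86), Nisch (0.86) and Nav1 (0.85), of 4845 genes ranked. The 14 points share 2 libraries and their depths, and the values describe these data alone.

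Other genes of the same response stood on both sides between stromal and lymphoid cells, against an all-gene median log2 fold of 0.28, where 31% of all genes were 2-fold higher and 17.3% lower. Of 10 other AP-1 and related factors with enough UMIs 7 were 2-fold higher and 1 lower (median 1.31), among them Maf at 6.45 (4.53 to 9.299) and Atf7 at 2.47 (1.51 to 4.001). Of 15 other immediate early transcription factors 6 were higher and 5 lower (median -0.023), with Klf2, a factor of quiescent lymphocytes and of endothelium, at 0.4202 (0.349 to 0.503). Of 19 early response effectors 8 were higher and 3 lower (median 0.42), with Btg1, which restrains proliferation, at 0.1801 (0.141 to 0.227). Of 17 feedback inhibitors 5 were higher and 3 lower (median 0.23), and Dusp1 stood at 383 against 61.5 CPM, a ratio of 6.23 (4.604 to 8.49). Upstream signal factors had 4 higher and 2 lower of 15 (median 0.27), and heat shock genes 3 and 2 of 13 (median -0.22).

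Between epithelial and lymphoid cells, which share those lymphoid cells, effectors had 10 higher and 3 lower of 19 (median 1.02 against 0.42 over all genes, of which 34.8% were higher and 13.8% lower). Other AP-1 factors had 3 and 2 of 9 (median 0.58). Other transcription factors had 4 and 6 of 15 (median 0.082), with Klf2 at 0.0722 (0.0562 to 0.0914) and Ier5 at 0.142 (0.0953 to 0.205). Feedback inhibitors had 2 and 4 of 17 (median -0.44), and Dusp1 stood at 1.12 (0.797 to 1.59). Upstream factors had 2 and 3 of 15 (median 0.087) and heat shock genes 2 and 3 of 13 (median -0.14). Acinar secretory genes were 2-fold higher in 31 of 31.

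Between the libraries, feedback inhibitors in fibroblast-like cells had 0 higher and 7 lower of 8 (median -1.55 against -0.15 over all genes, of which 14% were higher and 19.1% lower), with Dusp1 at 0.347 and Zfp36l1 at 0.384, on the same 6 EYFP negative cells. Heat shock genes in those cells had 3 higher and 2 lower of 12 (median 0.49). In T-like cells 0 of 17 feedback inhibitors were higher and 0 lower, against 3.61% and 8.88% of all genes, while 27 of 27 acinar secretory genes were higher in the EYFP positive library, at 6459 CPM of acinar markers against 65.4 CPM.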

How the data were processed

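Droplet-based single-cell libraries of sorted EYFP positive and EYFP negative pancreatic cells were analysed from the UMI counts per gene and cell that the authors deposited. A 5′ kit of version 1.1 was used, per the labels' protocols. The submitters' processing notes name Cell Ranger 2.1.0 and build GRCh38, while the file headers give software version 3.1.0 and mouse gene IDs, so the build used for mapping is uncertain. Barcodes under 200 genes or over 20% mitochondrial UMIs were dropped. The remaining cells were clustered with scanpy 1.11.5 (igraph 0.11.9; 2000 variable genes, 30 principal components, 15 neighbours, resolution 1) without 94 immediate early and heat shock genes, and named from markers by a rule written after the clusters were seen, so class names are rebuilt and not the authors'. Scrublet marked 2 and 2 cells, which were kept in the main values, and 4 EYFP negative T-like cells held more B than T marker UMIs.

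Counts were summed per class and library, with exact Poisson intervals for CPM, exact conditional binomial intervals for folds and Clopper-Pearson intervals for shares (Python 3.11.15, numpy 2.4.6, scipy 1.17.1, pandas 2.3.3). A gene entered a comparison with at least 10 UMIs over both sums and counted as higher or lower past 2-fold. Log2 folds add 0.5 UMI. With 1 library per group no p-value was computed. Thinning drew 500 UMIs from each cell, and 0 kept cells were too shallow for it. Log2 folds and fold intervals were tested on simulated sums, and thinning was not. The simulated sums were Poisson counts, as the intervals assume, so that test checks the computation and does not cover spread between cells.

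The 10 genes and the other lists were chosen with earlier results of these data known. All 10 genes were described, and from each other list the genes named were those with the most UMIs by the rule for named genes, with the genes most like the members by Pearson's r. Alternatives were other filters, depths, resolutions, totals and class rules. Cells under 1000 UMIs, the thinned Jun share and ductal-like cells without the 1 rich in endocrine markers were added after the data were seen. The contrasts with the Rbpjl-led cluster, and that of T-like with B-like EYFP negative cells, were not among those planned. No promoter window of Egr1 or Ier2 was used here.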

Additional observations from a re-analysis of the deposited data

Results flagged for a closer look

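The barcodes left out of the cells also held transcripts of the 10 genes. Barcodes with under 200 genes carried them at 282 CPM in the EYFP positive and 38.1 CPM in the EYFP negative library. Hemoglobin made up 23.1% of the UMIs of these barcodes in the EYFP positive and 96% in the EYFP negative library. Both levels are scaled to totals that include hemoglobin, so no difference between the libraries is read from them. The part of hemoglobin was not tested. Barcodes with over 20% mitochondrial UMIs carried them at 855 and 1688 CPM. All 4 sums were above 3 UMIs and below the level of the kept cells.

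The difference between libraries pointed opposite ways in macrophage-like and fibroblast-like cells for 6 genes, with counting intervals on opposite sides of equality. The macrophage-like log2 fold exceeded the fibroblast-like one by 2.68 for Ier2, 2.63 for Jun, 1.88 for Fosb, 1.81 for Fos and 1.45 for Jund. For Egr1, the other one, the widest gap was to B-like cells, where the macrophage-like fold exceeded the B-like one by 5.09. None of these differences was tested, since each library is a single sample, and the fibroblast-like folds rest on 6 EYFP negative cells. The macrophage-like log2 folds of 5 of the genes turned negative under an alternative setting. Their lowest values were -0.81 for Fosb, -0.67 for Jund, -0.22 for Jun, -0.067 for Fos and -0.055 for Ier2. For Egr1 the lowest was 0.29. No share over all genes stands beside the count of 6, so nothing is read from it.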

How the results depend on the processing

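No paired analysis was possible because each sorted group is 1 library. Of the values for single genes and class levels under the alternatives, 913 stayed within their error, 184 moved and 6 reversed. These totals mix unlike settings. Thinning to 500 UMIs moved 76, reversed 1 and left 34 the same. Restriction to cells under 1000 UMIs moved 15, reversed 1 and left 11, and the mean over cells moved 35 and left 50. Members from 1 UMI, leaving out Scrublet-marked cells and clustering with the early response genes each left 85 the same. In stromal over lymphoid cells 3 members were higher and 0 lower. Restricted to cells under 1000 UMIs these became 1 and 1, the median log2 fold went to 0.0066, and Jun reversed to -0.27. The higher count was 1 with the mean over cells and 1 with mitochondrial, ribosomal and acinar secretory genes left out of the total, and the lower count 1 with cells thinned to 500 UMIs. Epithelial over lymphoid went from 4 higher to 1 and from 1 lower to 0 under 1000 UMIs. Its lower count was 2 when barcodes under 500 genes or over 10% mitochondrial UMIs were dropped, 2 with the reduced total and 2 with classes from each cell's own markers. Stromal over epithelial had 0 higher and 2 lower, Jun and Jund, under 1000 UMIs, 0 higher when thinned, 1 higher and 1 lower at resolution 2.0, 1 and 1 with the mean over cells, and 1 higher with the reduced total, 1 with own markers and 1 without the top cell of each sum. Of the library comparisons, fibroblast-like cells changed most. Their median was -1.04 with the stricter filter, -0.95 with the reduced total and 0.088 at resolution 2.0, where Fos (0.17), Jun (0.36) and Egr1 (0.0083) reversed because 1 EYFP negative cell was left. Their lower count was 5 with the stricter filter, 5 in cells with at least 1000 UMIs, 4 when thinned, 4 with the reduced total and 1 at resolution 2.0, and Nr4a1 reversed to 0.27 without the top cell, which held its EYFP negative UMIs. Macrophage-like cells had 0 lower in cells with at least 1000 UMIs, 1 higher and 0 lower when thinned, where Jun reversed to -0.22, 0 lower with the reduced total and 2 with the mean over cells. Endothelial-like cells had 1 higher and 1 lower when thinned and 1 higher without the top cell. B-like cells had 1 higher when thinned, and all kept cells 1 higher when thinned and 1 lower with the mean over cells. The variance over mean of the T-like sum was 2.78 at 1000 UMIs a cell. Where no cause is named, the cause was not tested. Depth limits Atf3 and Nr4a1 most, with under 10 UMIs in several classes.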
